A study of Mus musculus with 6 samples.

Results

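The genes described here are 4 catenins (Ctnnd1, Ctnnd2, Ctnna1 and Ctnna2) and 6 cadherins (Cdh2, Cdh4, Cdh8, Cdh10, Cdh11 and Cdh13), 10 of the 32201 genes in the deposited table. They were taken by name, and 2 of them, Ctnnd2 and Cdh11, were chosen by their log2 changes and p-values in these same libraries, where they were lower with baicalin without passing the adjusted threshold of 0.05. For these 2 genes the comparison of baicalin with saline is therefore a description with no test. Ordered by unadjusted p among 13153 genes tested, Ctnnd2 stood at position 14 and Cdh11 at 37, and the next of the 10 genes, Ctnnd1, at 309. RNA sequencing was done on hippocampus of male C57BL/6N mice aged 8 weeks. The mice of all 6 libraries had undergone chronic unpredictable mild stress (restraint, cage tilt, altered lighting and other stressors), a rodent model of depression. The 3 treated libraries are from animals that received baicalin, a flavonoid of Scutellaria root, at a dose of 20 mg/kg, and the 3 control libraries are from animals that received saline. Both groups were stressed, so no comparison with unstressed mice is made here, and the labels do not say whether each library is a separate animal. The p-values therefore measure only the spread between these libraries, which may be technical.

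Cadherins are calcium-dependent adhesion proteins that bind their like on the opposing membrane, and in brain they hold the 2 sides of a synapse together. The tail of a classical cadherin binds a delta catenin (the p120 family) close to the membrane and beta-catenin at its end. Beta-catenin in turn binds an alpha catenin, which connects the complex to actin. Type I and type II classical cadherins share this tail and differ in their outermost adhesive domain. Cdh13 encodes T-cadherin, which has no such tail and is held by a lipid anchor. Ctnnd2 encodes delta-catenin, a mostly neuronal p120 relative of dendrites and spines.

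Of the 10 genes, 5 have entries in the RefSeq promoter table (build GRCm38.p6), each covering 300 bases around an annotated start. The sequences below are those of Ctnnd2, Ctnnd1 and Cdh10, which are 3 of the 4 genes whose baicalin and saline libraries did not overlap. Cdh11 is the other one. They are shown to let their base composition be compared. Ctnnd1 has 2 entries: one at the 5′ end of the gene as the deposited table gives it, and one at a start upstream of that span. The Cdh10 entry lies inside the deposited span of its gene, downstream of its 5′ end. Capitals mark matches to 6 motifs searched on both strands: the GC box (GGGCGG), the CCAAT box (CCAAT), the TATA box (TATAAA), the cAMP response element (TGACGTCA), the E box (CACGTG) and the TCF site (CTTTGAT). No matches to different motifs overlap in these sequences.
Ctnnd2, chr15:30172284-30172583, plus strand: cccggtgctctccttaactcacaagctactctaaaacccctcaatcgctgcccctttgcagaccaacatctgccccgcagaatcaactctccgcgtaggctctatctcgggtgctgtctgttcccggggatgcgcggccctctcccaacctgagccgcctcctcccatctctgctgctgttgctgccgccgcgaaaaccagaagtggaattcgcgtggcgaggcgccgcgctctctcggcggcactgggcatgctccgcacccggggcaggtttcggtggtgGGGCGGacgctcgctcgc
Ctnnd1 at the deposited 5′ end, chr2:84650691-84650990, minus strand: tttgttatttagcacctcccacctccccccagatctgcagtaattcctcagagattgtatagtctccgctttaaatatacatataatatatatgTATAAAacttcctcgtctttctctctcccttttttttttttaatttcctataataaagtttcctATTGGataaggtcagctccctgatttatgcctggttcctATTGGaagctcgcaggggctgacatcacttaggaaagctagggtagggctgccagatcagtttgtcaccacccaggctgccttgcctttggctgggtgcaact
Ctnnd1 upstream start, chr2:84658928-84659227, minus strand: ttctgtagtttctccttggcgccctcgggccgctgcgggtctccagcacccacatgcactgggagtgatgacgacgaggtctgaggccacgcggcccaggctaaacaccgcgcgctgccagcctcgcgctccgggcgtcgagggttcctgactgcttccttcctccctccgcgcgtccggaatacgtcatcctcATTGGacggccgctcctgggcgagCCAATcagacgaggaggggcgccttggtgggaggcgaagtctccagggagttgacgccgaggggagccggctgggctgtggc
Cdh10, chr15:18820079-18820378, plus strand: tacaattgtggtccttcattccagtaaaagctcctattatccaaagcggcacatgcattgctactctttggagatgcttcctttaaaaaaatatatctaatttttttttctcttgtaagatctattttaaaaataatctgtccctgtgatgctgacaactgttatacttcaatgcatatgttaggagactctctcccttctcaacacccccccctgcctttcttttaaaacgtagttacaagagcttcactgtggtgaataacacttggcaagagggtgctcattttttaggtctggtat

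The Ctnnd2 entry was rich in CpG, the Cdh10 entry was not, and the entries of Ctnnd1 fell on either side. The sequence at the deposited 5′ end of Cdh10 has no entry and was not examined. Ctnnd2 had 64.7% GC with 28 CpG dinucleotides. Ctnnd1 had 42.7% GC with 3 CpG at the deposited 5′ end and 67.7% GC with 30 CpG at the upstream start. Cdh10 had 37.7% GC with 2 CpG, against medians of 52.7% GC and 7 CpG over 32851 promoters of the same length. A GC box stood in the Ctnnd2 sequence, 33 bases after the start, and such a box occurs in 35.7% of all promoters. Both Ctnnd1 entries held CCAAT boxes, at 92 and 53 bases before the deposited 5′ end's annotated start and at 56 and 32 bases before the upstream start, and 37.4% of all promoters hold one. The former also held a TATA box. None of the 6 motifs was found in the Cdh10 sequence. The remaining motifs occur in 13.6% (TATA box), 1.79% (cAMP response element), 7.15% (E box) and 3.73% (TCF site) of promoters. Of the other entries, Cdh8 had 62.3% GC and 21 CpG, and Ctnna2 had 75.3% GC and 38 CpG. The groups of Cdh8 and Ctnna2 overlapped, so GC-rich entries occurred among genes with and without separate groups.

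All 10 genes were measured and passed the filter of a mean of at least 1 FPKM (fragments scaled by transcript length and by library size), a unit that can be compared between genes. In the saline libraries Ctnna2, the neuronal alpha catenin, had the highest level at 15.5 ± 0.882 FPKM (SD, n = 3), followed by Ctnnd2 at 13.9 ± 0.334. Ctnna1, the widely expressed alpha catenin, had 12.2 ± 1.23 FPKM, and Cdh2, which encodes N-cadherin, had 11.5 ± 0.302. The ranges of Ctnna1 and Cdh2 overlapped. Cdh11 had 9.73 ± 0.551 FPKM, Ctnnd1, which encodes p120-catenin, 7.67 ± 0.230, and Cdh8, a type II cadherin of neurons, 6.86 ± 0.296, each apart from its neighbours. Cdh13 (3.52 ± 0.229 FPKM) and Cdh10 (3.27 ± 0.252 FPKM) overlapped, and Cdh4, which encodes R-cadherin, was lowest at 1.27 ± 0.167 FPKM. In the baicalin libraries Ctnnd2 stood 4th in the order instead of 2nd, at 10.9 ± 0.509 FPKM, below Cdh2 (11.8 ± 0.180) and Ctnna1 (11.7 ± 0.633), with a range that overlapped that of Ctnna1.

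**Figure D1:**
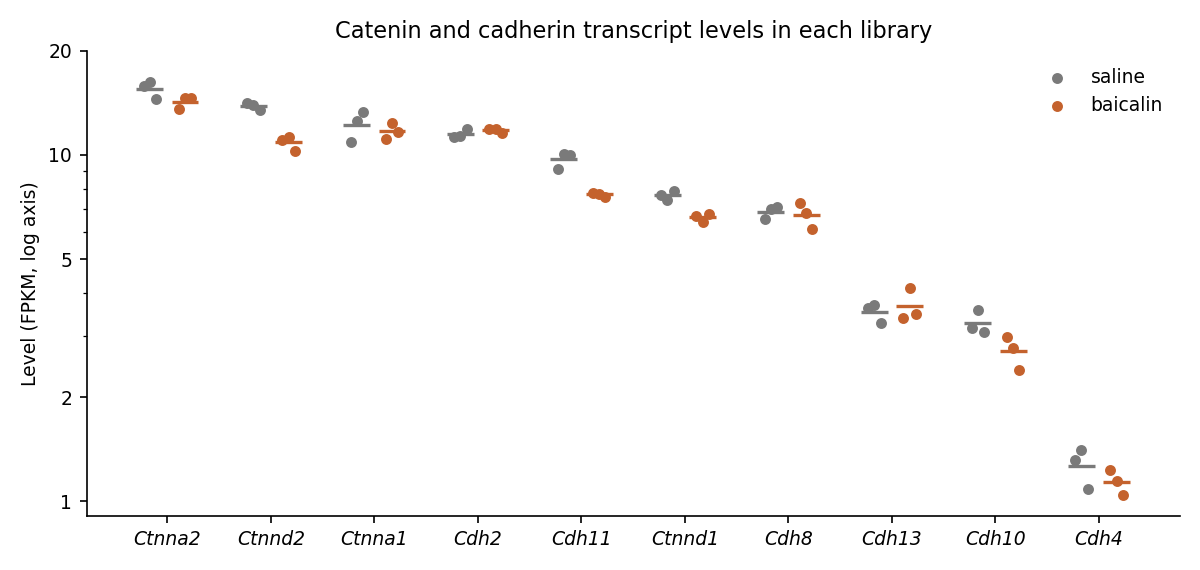
Level of each gene in each library, in FPKM on a log axis, ordered by the saline mean. Points are libraries (3 saline, 3 baicalin), bars are group means, and the levels run from Ctnna2 at the top to Cdh4 near 1 FPKM.

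Within a gene, libraries were compared as CPM, the deposited counts scaled to library size with TMM factors. The sources used here do not say if these whole numbers are directly counted reads or were derived from another estimate. Delta-catenin transcript was lower in every baicalin library than in any saline library. Ctnnd2 (ENSMUSG00000022240, chr15:30172593-31029341 in mm10, plus strand) had 131.7, 133.2 and 124.4 CPM with baicalin and 167.9, 166.7 and 160.2 CPM with saline. The lowest saline library lay above the highest baicalin library by more than the range of either group. The means were 129.7 ± 4.72 and 165.0 ± 4.13 CPM (SD, n = 3 each), a difference of -21.4% and a log2 change (baicalin minus saline) of -0.35 ± 0.04 (SE). The deposited counts of Ctnnd2 were between 7445 and 11026 per library.

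Ctnnd1 (ENSMUSG00000034101, chr2:84600071-84650745, minus strand), the broadly expressed p120-catenin gene that stabilises cadherins at the membrane, had 56.6, 53.9 and 57.9 CPM with baicalin and 64.6, 63.0 and 66.4 CPM with saline. Its groups did not overlap, but the gap between them was small beside that of Ctnnd2. The log2 change was -0.20 ± 0.05 (SE), and it did not pass the threshold (adjusted p = 0.324, edgeR quasi-likelihood test, adjusted by Benjamini-Hochberg over all genes tested). Together with Arvcf and Pkp4, the other genes of the p120 family, Ctnnd1 and Ctnnd2 summed to 71.1 ± 1.05 FPKM with saline and 65.5 ± 1.43 FPKM with baicalin. Ctnnd2, picked for its fall in these libraries, made up 19.5% ± 0.186 of that sum with saline and 16.6% ± 0.668 with baicalin. Ctnnd1 made up 10.8% ± 0.456 and 10.1% ± 0.344, and its shares overlapped between the groups. A share within a library does not depend on how libraries are scaled. The lower share of Ctnnd2 follows from its choice and raises the shares of Ctnnd1, Arvcf and Pkp4. Pkp4, an armadillo-repeat relative found at adherens junctions, held most of the sum, at 64.4% ± 0.676 with saline and 67.0% ± 1.26 with baicalin.

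The alpha catenins overlapped between the groups. Ctnna2 (ENSMUSG00000063063, chr6:76881637-77979699, minus strand), which stabilises dendritic spines, had 108.7, 116.2 and 119.1 CPM with baicalin and 125.9, 130.6 and 116.1 CPM with saline. Here saline library 3 lay among the baicalin libraries. The log2 change was -0.12 ± 0.06 (SE, adjusted p = 0.489 in edgeR). Ctnna1 (ENSMUSG00000037815) had 47.4, 52.3 and 50.3 CPM with baicalin and 46.2, 53.5 and 56.4 CPM with saline. Its log2 change was -0.06 ± 0.09 (SE, adjusted p = 0.813 in edgeR) and was 0.005 without saline library 3. A synaptic adhesion gene lies inside each of these genes on the opposite strand: Lrrtm1 (22.2 FPKM) in Ctnna2 and Lrrtm2 (4.91 FPKM) in Ctnna1. The sources used here do not say if reads were counted by strand, so reads of each pair may not be separable. The log2 changes were -0.29 ± 0.13 (SE) for Lrrtm1 and -0.23 ± 0.09 for Lrrtm2, with adjusted p = 0.440 and 0.417 in edgeR. Their relative Lrrtm3, nested in an alpha catenin gene outside the 10, went the other way at 0.25 ± 0.11 (SE, adjusted p = 0.437 in edgeR). Its baicalin libraries were all above its saline libraries in CPM. None of the other 8 of the 10 genes overlapped a gene with at least 1 FPKM.

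Of the type I cadherins, Cdh2 (ENSMUSG00000024304), the main classical cadherin of central synapses, had 110.8, 110.0 and 109.3 CPM with baicalin and 104.7, 105.8 and 109.7 CPM with saline. Only saline library 3 lay among the baicalin values. The log2 change was 0.04 ± 0.04 (SE, adjusted p = 0.672 in edgeR), and it was -0.03 under TPM scaling. Cdh4 (ENSMUSG00000000305, chr2:179442431-179899373, plus strand) had 10.3, 9.50 and 8.85 CPM with baicalin and 11.0, 11.8 and 9.05 CPM with saline, where saline library 3 was again the one of its group among the baicalin values. Its log2 change was -0.15 ± 0.13 (SE, adjusted p = 0.647 in edgeR), -0.07 without saline library 2, and -0.26 without saline library 3.

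Of the 3 type II cadherins among the 10 genes, Cdh11 was the lowest relative to saline and varied least among the baicalin libraries. Cdh11 (ENSMUSG00000031673, chr8:102632095-102785642, minus strand), a cadherin of mesenchymal cells that is also expressed in neurons, had 79.9, 78.7 and 79.0 CPM with baicalin and 93.0, 103.8 and 102.4 CPM with saline. The baicalin libraries had a mean of 79.2 ± 0.636 CPM (SD, n = 3), and all were below saline library 1, the lowest of its group. The saline mean was 99.7 ± 5.86 CPM, which makes a difference of -20.6% and a log2 change of -0.33 ± 0.06 (SE). Without saline library 1 the log2 change was -0.38, and without saline library 2 it was -0.30.

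Cdh10 (ENSMUSG00000022321, chr15:18818947-19014236, plus strand), a type II cadherin of hippocampal neurons, had 34.7, 31.9 and 28.1 CPM with baicalin and 36.5, 41.4 and 35.7 CPM with saline. The groups did not overlap, though baicalin library 1 came within about 1 CPM of saline library 3. The log2 change was -0.26 ± 0.10 (SE, adjusted p = 0.400 in edgeR), and it ranged from -0.34 to -0.19 when 1 library was left out. Cdh8 (ENSMUSG00000036510, chr8:99024471-99416427, minus strand) had 64.95, 60.5 and 55.3 CPM with baicalin and 58.0, 62.5 and 62.8 CPM with saline. Its highest and its lowest library were both baicalin libraries, and the log2 change was -0.02 ± 0.07 (SE, adjusted p = 0.923 in edgeR). Cdh13 (ENSMUSG00000031841, chr8:118283733-119324921, plus strand), the tail-less T-cadherin, had 43.9, 53.2 and 45.6 CPM with baicalin and 46.7, 47.9 and 42.1 CPM with saline. Only baicalin library 2 lay above the saline range. The log2 change of Cdh13 was 0.06 ± 0.09 (SE, adjusted p = 0.813 in edgeR), and -0.03 without baicalin library 2.

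**Figure D2:**
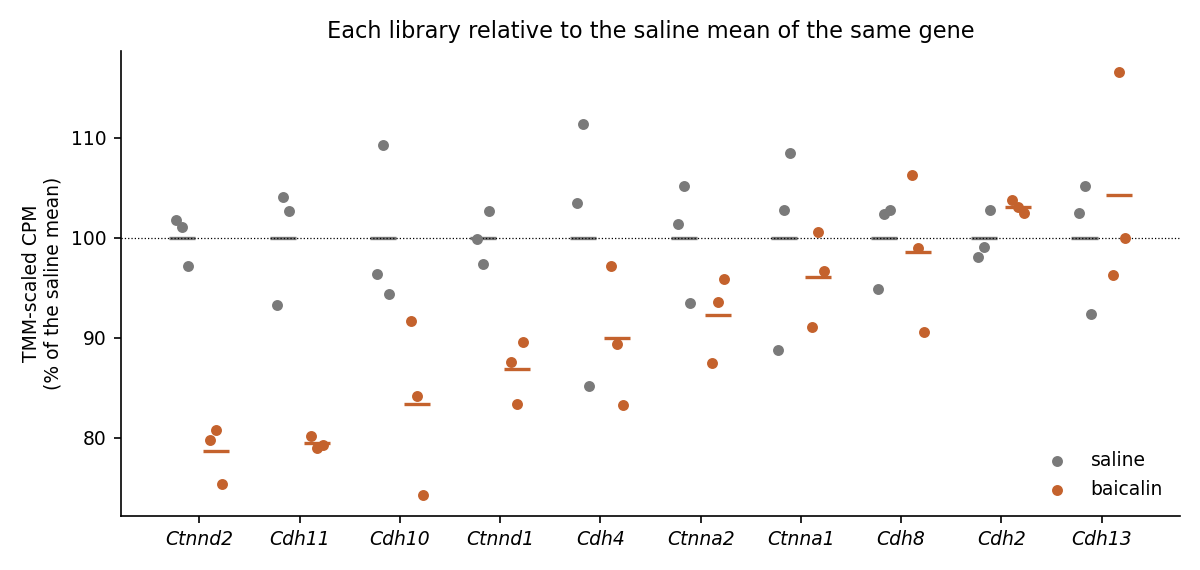
CPM of each library as a percentage of the saline mean of the same gene, with genes ordered by log2 change. Points are libraries and bars group means. The baicalin points of Ctnnd2, Cdh11, Cdh10 and Ctnnd1 lie below every saline point, and those of the other 6 genes overlap them.

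Of the 10 genes, 0 passed the adjusted threshold in edgeR, where 6 of 13153 genes tested did (0.0456%, or 0.0304% counting those lower with baicalin). At an unadjusted p under 0.05 there were 4, all lower with baicalin, against 11.8% of all genes tested (5.46% lower, 6.34% higher). DESeq2 called 218 of 13153 genes (1.66%, or 0.661% counting those lower with baicalin), and 2 of the 10, which are the picked Ctnnd2 and Cdh11. The same 4 had a log2 change of -0.2 or lower, as did 9.44% of all genes. In 4 of 10 all baicalin libraries were below all saline libraries, against 9.52% of all genes (19.4% in either direction), and in 0 of 10 they were above. Since 2 of these 4, Ctnnd2 and Cdh11, were chosen for that difference, the count for the rest is 2 of 8 (Ctnnd1 and Cdh10). The 8 were also chosen with earlier results of these data known, so this count carries no test. Log2 changes were negative in 8 of 10 genes (median -0.13), or in 6 of the 8 not picked (median -0.09), against 50.2% of all genes (median -0.0006). Under TPM scaling the median of all genes was -0.08, and that of the 10 genes -0.21.

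Length moved with these results. The median genomic span of the 10 genes was 306.2 kb against 20.0 kb for all genes tested, and 9 of 10 lay in the longest 5th by span. In these libraries long genes tended to be lower with baicalin. Sorted by exon length into 5 bins, genes of the shortest bin had a median log2 change of 0.11 and those of the longest bin, where 7 of the 10 genes fall, one of -0.07. Of all genes in that longest bin 72.2% had negative changes, and in 19.7% the baicalin libraries were all below the saline libraries. With the trend in exon length removed the log2 changes were -0.28 for Ctnnd2, -0.28 for Cdh11, -0.20 for Cdh10 and -0.16 for Ctnnd1, and the median of the 10 genes was -0.09. With the trend in genomic span removed they were -0.27, -0.28, -0.21 and -0.17, with a median of -0.06. Cdh8 was then positive, at 0.02 by exon length and 0.04 by span. Cdh13, the longest of the 10 by exon length, was positive with either trend removed. The part of length in these results was not tested beyond these values.

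**Figure D3:**
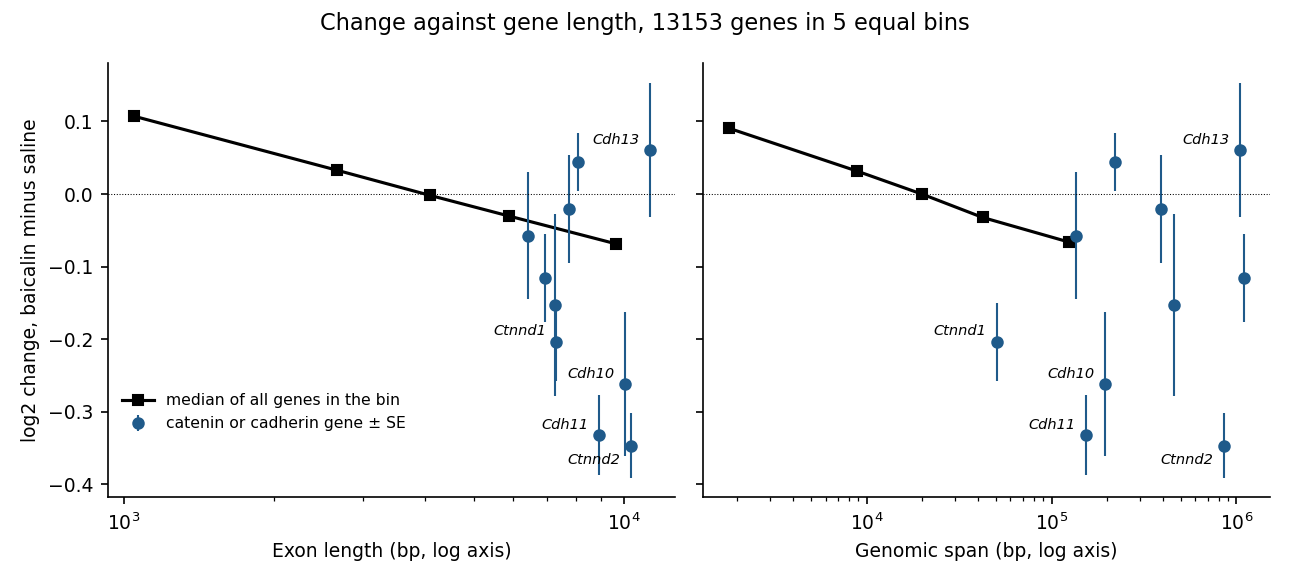
Log2 change (baicalin minus saline) against exon length (left) and genomic span (right), both on log axes in bp. Squares are medians of all genes in each of 5 equal bins, and circles are the 10 genes with SE. Ctnnd2, Cdh11, Cdh10, Ctnnd1, Cdh4 and Ctnna2 lie below the medians of their bins, and Cdh13, Cdh2 and Cdh8 above. Ctnna1 lies below by exon length and above by span.

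Among the cadherins, shares of the summed transcripts differed by a few percentage points, most for the picked Cdh11. The 18 classical cadherin genes in the table and Cdh13 summed to 61.0 ± 1.49 FPKM with saline and 58.1 ± 2.84 FPKM with baicalin. Cdh11 held 15.3, 16.5 and 16.04% of that sum in the saline libraries and 13.2, 12.7 and 13.8% in the baicalin libraries, with no overlap. Cdh11 was picked for its fall in these libraries, so its lower share follows from that choice and raises the shares of the others. Cdh2 held 18.9% ± 0.258 with saline and 20.3% ± 0.709 with baicalin. The next largest were Cdh9, a cadherin of dentate and CA3 synapses that is not one of the 10 genes, with 12.9% ± 1.93 and 13.6% ± 0.789, and Cdh8 with 11.2% ± 0.243 and 11.6% ± 0.691.

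The wider list of cadherins, catenins, nectins and their regulators had 48 genes in the table, of which 36 were tested. Of the 26 that are not among the 10 genes, 0 passed the threshold in edgeR or in DESeq2, and 3 had an unadjusted p under 0.05, all lower with baicalin (Adam10, Ptpn1 and Fer, which encodes a tyrosine kinase that binds p120-catenin). The share of 3 in 26 is near the 11.8% of all genes tested in either direction, of which 5.46% were lower and 6.34% higher. Log2 changes were negative in 12 of the 26 and positive in 14 (median 0.02). In 5 of the 26 the baicalin libraries were all below the saline libraries, and in 2 they were all above, against 9.52% and 9.93% of all genes.

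Beta-catenin, which both cadherins and alpha catenins bind, varied widely within both groups. Ctnnb1 had 364.3, 410.9 and 224.0 CPM with baicalin and 348.0, 235.0 and 227.8 CPM with saline. Baicalin libraries 1 and 2 and saline library 1 were high, so the groups overlapped (log2 change 0.30 ± 0.26 SE, adjusted p = 0.658 in edgeR). Its relative Jup, which encodes plakoglobin, had 14.2, 16.3 and 15.7 CPM with baicalin against 16.5, 17.9 and 17.8 CPM with saline, without overlap (log2 change -0.17 ± 0.08 SE, adjusted p = 0.463 in edgeR).

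Of the other p120 relatives, Arvcf was at 0.16 ± 0.12 (SE) and Pkp4 at -0.05 ± 0.04 on the log2 scale, with adjusted p = 0.631 and 0.642 in edgeR. The groups of both genes overlapped. Of 10 type II cadherins tested, 6 had negative changes and 4 positive (median -0.04). They include Cdh5, the cadherin of endothelium, at -0.33 ± 0.15 (SE, adjusted p = 0.451 in edgeR) and Cdh19, a cadherin of glial lineages, at 0.25 ± 0.11 (SE, adjusted p = 0.442 in edgeR). Baicalin values of Cdh19 were all above the saline values, the reverse of Cdh11 and Cdh10.

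Among regulators 4 of 7 changes were negative (median -0.11). Adam10, the protease that sheds N-cadherin from the surface, had 78.2, 72.9 and 75.4 CPM with baicalin against 82.2, 84.2 and 88.5 CPM with saline (log2 change -0.17 ± 0.05 SE, adjusted p = 0.360 in edgeR). Ptpn1, a tyrosine phosphatase that binds N-cadherin, had -0.20 ± 0.08 (SE, adjusted p = 0.404 in edgeR). Neither gene's groups overlapped. Of nectins, afadin and actin linkers, 2 of 6 were negative (median 0.06), with Lima1 at -0.19 ± 0.10 (SE) and Vcl, which encodes vinculin, at -0.14 ± 0.10 (adjusted p = 0.5002 and 0.604 in edgeR). Ctnnal1, an alpha catenin relative, was at -0.008 ± 0.10 (SE, adjusted p = 0.979 in edgeR), and Ctnna3 (mean 0.0843 FPKM) lay below the filter.

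**Figure D4:**
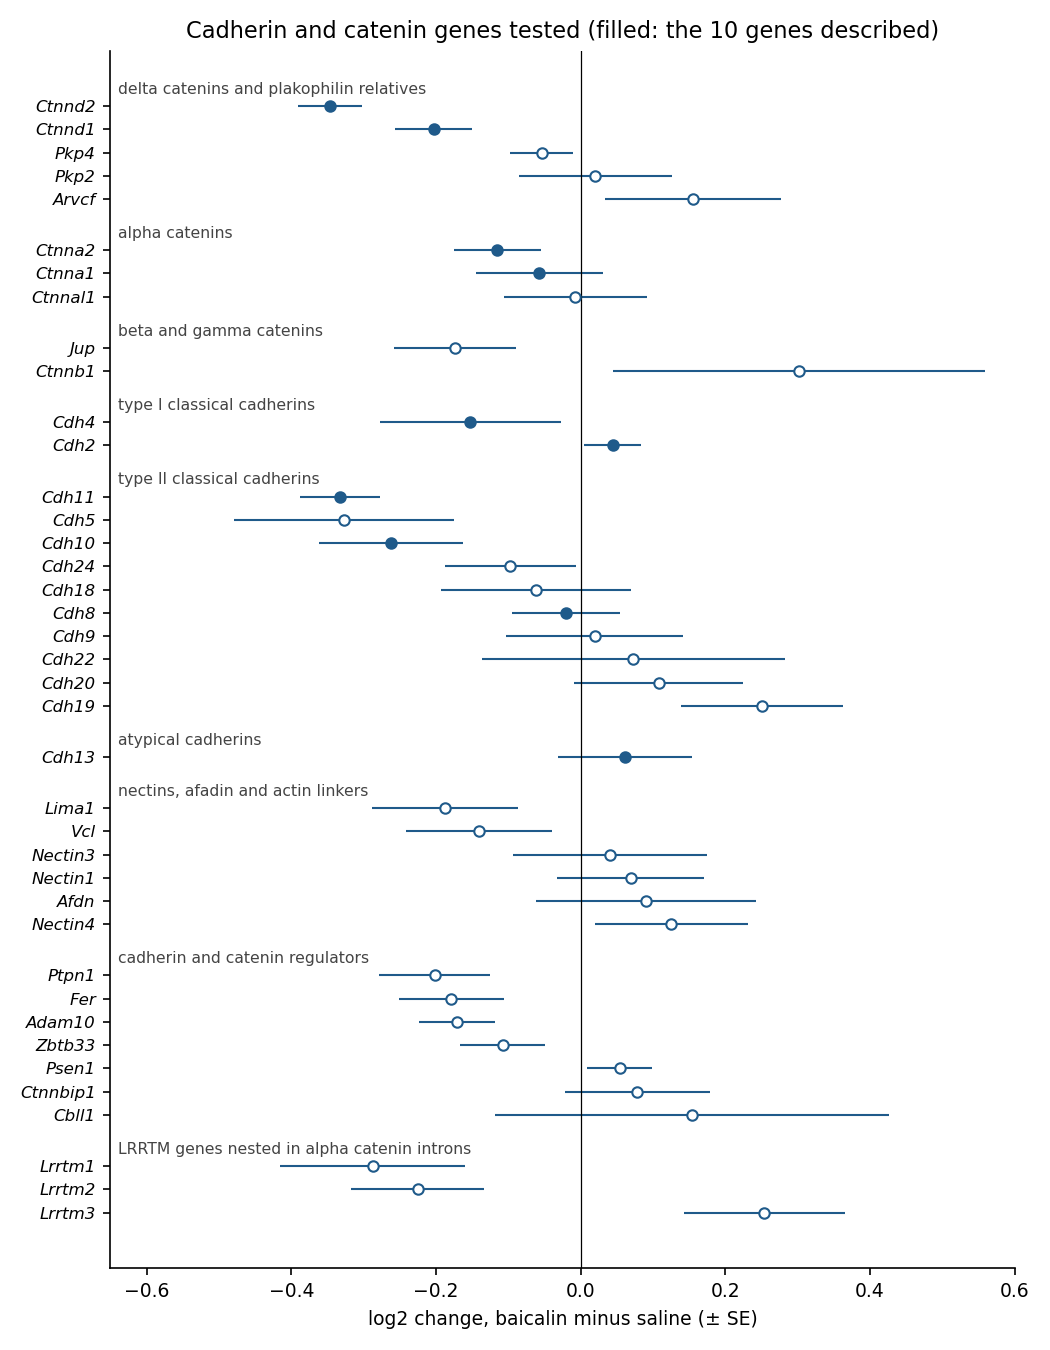
Log2 change (baicalin minus saline) with SE for each cadherin and catenin gene tested, by list. Filled circles are the 10 genes described, and open circles the other list members. Changes lie on both sides of 0 in most lists, and none passed the adjusted threshold in edgeR.

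The summed markers of hippocampal neurons were lower with baicalin beside these results. The sum of CA2 and CA3 markers was higher, a difference that lay in Pcp4. All 9 hippocampal neuron markers were measured. They summed to 221.9 to 275.1 FPKM with baicalin and 280.3 to 302.4 FPKM with saline, without overlap. Log2 changes were negative in 6 of 9 (median -0.21), 0 passed the adjusted threshold in edgeR, and none was at 0. Tdo2 and Dsp went the other way, with every baicalin library above every saline library in FPKM. Neurod6, a transcription factor gene of pyramidal neurons, had 136.4, 117.3 and 126.0 FPKM with baicalin and 145.5, 154.1 and 141.6 FPKM with saline, also without overlap. Prox1, a transcription factor gene of dentate granule cells, had 11.02, 10.9 and 11.7 FPKM with baicalin and 12.01, 7.81 and 12.2 FPKM with saline, where saline library 2 was low. Bulk tissue cannot tell fewer cells of a type from less RNA per cell. Of the 9 CA1 pyramidal markers, some are also in the neuron list. They summed to 174.1 to 214.3 FPKM with baicalin and 214.2 to 223.6 with saline. Log2 changes were negative in 8 of these 9 (median -0.24), and none was at 0. The 7 CA2 and CA3 markers summed to 298.3 to 321.3 FPKM with baicalin and 264.1 to 288.8 with saline, without overlap. Pcp4 had 114.3, 111.7 and 129.0 FPKM with baicalin and 92.3, 79.6 and 99.5 FPKM with saline. Rgs14 went the other way, with 29.6, 25.1 and 27.0 FPKM against 30.2, 31.5 and 31.4 FPKM. Of the 6 tested, 3 were negative and 3 positive (median 0.02). The 8 dentate granule markers summed to 67.9 to 71.1 FPKM with baicalin and 44.8 to 72.8 with saline. Log2 changes were positive in 6 of these 8 (median 0.16). Baicalin library 2 had the lowest CA1 mean, at -0.26 on the log2 scale relative to all libraries. Saline library 2 had the highest CA1 mean, at 0.16, and the lowest dentate mean, at -0.48. Of the 10 genes, Ctnna2, Cdh4, Cdh10 and Cdh11 had their highest CPM in saline library 2, and the others did not. Without saline library 2 the median log2 change of the 10 genes was -0.07. The part of these neuronal markers in the lower values of Ctnnd2, Cdh11, Cdh10 and Ctnnd1 was not tested.

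Meningeal fibroblasts express Cdh11, and their 10 markers summed to 12.2 to 13.3 FPKM with baicalin and to 12.2, 10.9 and 23.5 FPKM in saline libraries 1, 2 and 3, with none at 0. Of the 6 tested, 4 had negative log2 changes (median -0.21). Saline library 3 stood apart in these markers, and the log2 change of Cdh11 without it was -0.31. The part of meningeal fibroblasts in the Cdh11 difference was not tested. Endothelial markers, beside Ctnnd1 and Cdh5, summed to 58.8 to 70.3 FPKM with baicalin and 55.9 to 61.3 FPKM with saline. Of these 7 markers 4 were negative (median -0.01), none was at 0, and the part of endothelium was not tested.

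In pattern across the 6 libraries, Ctnnd2 and Cdh11 were the closest pair among the 45 pairs of the 10 genes. Both were picked for lower values in these same libraries, so their closeness is set by that choice. The root mean square difference between their log2 deviations was 0.071. The most unlike pair was Cdh11 and Cdh13, at 0.230. Of the genes tested that have an assigned name, those nearest to Ctnnd2 were Nkd1 (0.037), Zfhx2 (0.045) and Ryr3 (0.047). Nkd1, which encodes an inhibitor of Wnt signalling, had 7.34, 7.52 and 6.85 CPM with baicalin and 8.74, 9.16 and 8.85 CPM with saline. Nearest to Cdh11 were Rbm14 (0.046), Tmem64 (0.047) and Nin (0.049). Tmem64 had 37.3, 36.8 and 37.4 CPM with baicalin and 45.6, 45.8 and 49.1 CPM with saline. These distances describe 6 libraries and carry no test.

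The direction of Ctnnd1 was the same in 22 of 22 alternatives and that of Cdh10 in 21 of 21. All alternatives reuse the same libraries, in which the groups of both genes do not overlap. These counts are therefore a description and no independent support. Ctnnd2 and Cdh11, picked for their direction in these libraries, also kept it in 22 of 22, as a description. The log2 change ranged from -0.42 to -0.27 for Ctnnd2, from -0.41 to -0.28 for Cdh11, from -0.34 to -0.19 for Cdh10 and from -0.28 to -0.16 for Ctnnd1. Ctnna2 and Cdh4 also stayed negative throughout, with ranges that came to -0.03 and -0.07, while Ctnna1, Cdh8, Cdh2 and Cdh13 took either sign.

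**Figure D5:**
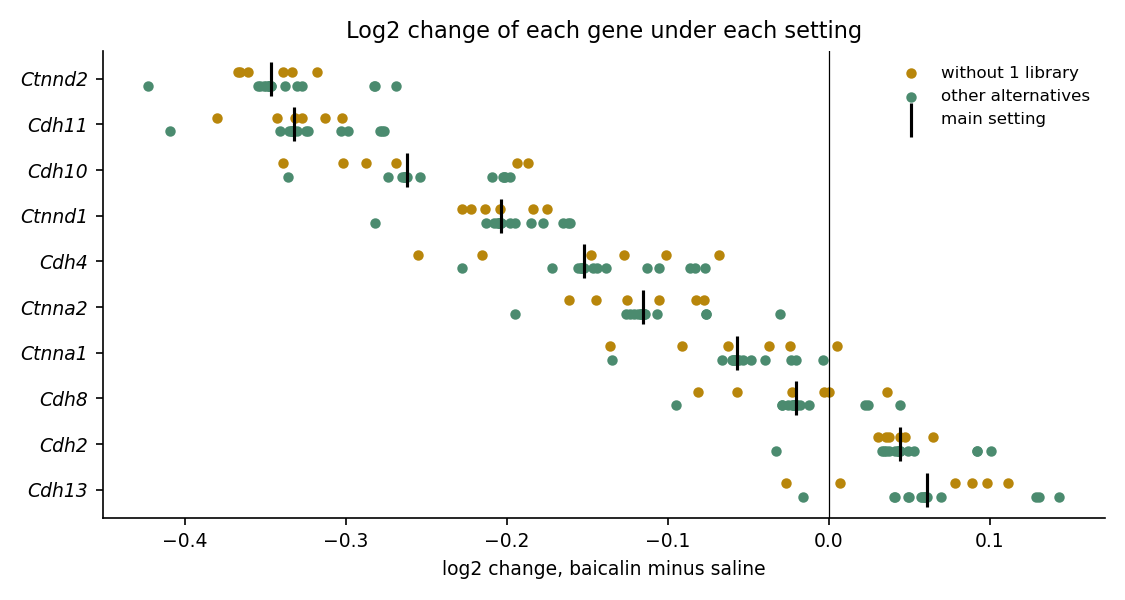
Log2 change (baicalin minus saline) of each gene under the main setting (vertical mark), without 1 library (upper points) and under the other alternatives (lower points). All points of Ctnnd2, Cdh11, Cdh10 and Ctnnd1 are below 0, and those of Ctnna1, Cdh8, Cdh2 and Cdh13 lie on both sides.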

How the data were processed

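RNA from hippocampus of stressed mice was depleted of ribosomal RNA and sequenced as 3 baicalin and 3 saline libraries, per the labels. The deposited table gives, for 32201 genes, whole-number counts and FPKM values made by the authors, per the file headers. The submitters' processing notes name build mm10 and, without roles, HISAT2, StringTie, bcl2fastq 2.0, limma and DESeq2. Use of strand in counting is not stated there. Left out were 12 other per-sample columns whose names fit none of the labels. Totals were 61303274 to 67957752 counts per library.

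The 13153 genes averaging 1 FPKM or more were tested on the deposited counts with TMM scaling and edgeR 4.0.16's quasi-likelihood test under R 4.3.3, with Benjamini-Hochberg adjustment and a threshold of 0.05. Each SE was obtained from the log2 change and the F statistic (absolute change over root F). Exon lengths came from GENCODE M21. Scripts were tested on simulated data. Alternatives comprised filters, scalings, DESeq2 1.42.0, limma 3.58.1 (on log2(FPKM + 1) and with voom), removal of length trends, a replicate block and leaving out each library. The genes, lists and alternatives were chosen with earlier results of these data known. All 10 genes are named. Of the other list genes Ctnnb1 and up to 2 per list with the smallest unadjusted p were named. Ctnna3, Cdh9 and Fer were named after their values were seen. For the nearest patterns, up to 3 genes by distance were named, with predicted genes without an assigned name left out.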

Additional observations from a re-analysis of the deposited data

How the results depend on the processing

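The number of genes called over the whole table was 6, against 218 with DESeq2, 3 with quantile-normalized limma, and 2 to 39 when 1 library was left out. The count was 39 omitting baicalin library 1, 2 omitting baicalin library 3, 10 omitting saline library 2 and 14 omitting saline library 3. DESeq2 called 2 of the 10 genes and 2 of the wider list, Ctnnd2 and Cdh11 in both cases, and no other alternative called any (0 each). The median log2 change of the 10 genes, -0.13, was -0.21 under TPM scaling, -0.10 in limma on log2(FPKM + 1) and also when quantile-normalized (-0.0985 and -0.0957), -0.0947 with the exon length trend removed and -0.0582 with the span trend removed. It ranged from -0.173 (omitting saline library 3) to -0.073 (omitting saline library 2). The median of the wider list, -0.04, was -0.11 under TPM scaling, -0.0072 with the exon length trend removed and 0.028 with the span trend removed, and -0.0724 to -0.0325 without 1 library. Signs turned for Cdh2 (-0.0331) and Cdh13 (-0.0160) under TPM scaling and for Cdh8 with the exon length (0.0241) or span trend (0.0445) removed. They also turned without 1 library for Ctnna1 (-0.136 to 0.00511), Cdh8 (-0.0815 to 0.0361) and Cdh13 (-0.0268 to 0.111). In comparisons chosen after seeing the data, 4 of the 10 genes were separate and lower with RLE factors (9.63% of all genes) and in deposited FPKM (10.1%), and 5 under TPM scaling (19%). Without 1 library 4 to 6 were, against 13.2% to 17% of all genes. The 6 came without saline library 3 (15.2%), where Cdh2 was separate and higher. Where no construction shows it, the cause was not tested.

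With a replicate block 0 genes were called, and 0 with the block and the exon length trend removed, where the medians were -0.0909 for the 10 genes and -0.0012 for the wider list and Cdh8 was at 0.0227. Same-numbered libraries correlated at 0.123, 0.080 and 0.012, and differently numbered ones at -0.102 to 0.036. Not every library was closest to its own number. The numbers were not taken as pairs in the main setting, and these values do not settle whether they are. The fits without 1 library leave 2 libraries in a group.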
